A study of Canis lupus familiaris with 18 samples.

Results

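Interferon response genes were followed across 18 canine primary osteosarcomas, malignant bone tumours whose cells deposit bone matrix. The set was a list of 49 symbols for 48 genes, since DDX58 and RIGI name the same gene. Of these, 39 had a probe set that the platform annotation assigns to a single symbol, out of 15115 genes so named on the array, and each gene was read from its probe set of highest mean. A further 2, IFIT2 and RSAD2, lay below the filter on dim probe sets, which left 37 genes in the comparisons. IFIT1, IFIT3, OASL, DDX58, SAMD9, BST2, SP110, LGALS3BP and ZBP1 were not analysed here. The tumours came from dogs with a normal serum concentration of alkaline phosphatase (ALP), an enzyme shed into blood mainly by bone and liver, or with an increased one, 9 in each group, and all were snap frozen at surgery, biopsy or necropsy. The labels give no strain, age or treatment, and normal tissue was not analysed here. They do not state that each tumour came from a different dog, so p-values measure the spread between these samples.

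Interferons are secreted when a cell senses foreign or misplaced nucleic acid. Type I interferons act through the receptor IFNAR1/IFNAR2 and a factor complex that holds STAT2 and IRF9, while interferon gamma from T and NK cells acts through its own receptor and induces IRF1. Their target genes encode nucleic acid sensors, inhibitors of viral replication, the ubiquitin-like modifier ISG15 with its enzymes, and the machinery that loads peptides onto MHC class I. In a tumour these genes can be expressed by tumour cells and by the immune and stromal cells among them.

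Affymetrix canine arrays were used, 1 per tumour, with medians on the deposited log2 scale of 6.25 to 6.31. Levels below are log2(signal + 16) and are compared between tumours, never between genes, and the number of arrays limits the precision. Fold ranges over tumours are of the deposited signal, without the added 16, and so are wider than the levels beside them give. Bone matrix genes were bright in every tumour, with COL1A1 between 12.75 and 14.88 and COL1A2 between 14.59 and 15.09. Increased ALP replicates 3 and 6 stood apart in the BioB spike-in control, added to every hybridisation, at 10.34 and 9.89 against at most 9.21 in the other 16 arrays. The difference between 3' and middle probe sets of actin, a measure of RNA quality, had a median of 1.40 with normal ALP (range 1.19 to 1.76) and 1.76 with increased ALP (1.44 to 2.17). The tumours are bulk tissue, so fewer cells of a type and less RNA per cell cannot be told apart.

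The interferon response genes varied widely between tumours and largely moved together. The median SD of the 37 genes over the 18 tumours was 0.55, against 0.35 over all 10717 genes tested. For 30 of the 37 the SD exceeded that general median, and 11 lay in the top 10% of all genes. Over the 666 pairs of genes the median Pearson correlation across tumours was 0.453, with quartiles of 0.205 and 0.622, and 89.9% of pairs were above 0. The median over all pairs of the 10717 genes was -0.00039. Pairs over 0.8 made up 7.21% of pairs in the list and 0.113% of all pairs. A single component carried 49.2% of the variance of the standardized genes. It carried 42.7% without normal ALP replicate 9, the tumour of highest levels. All of these arrays share 1 platform and 1 processing, so these values describe the tumours and carry no test.

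**Figure D1:**
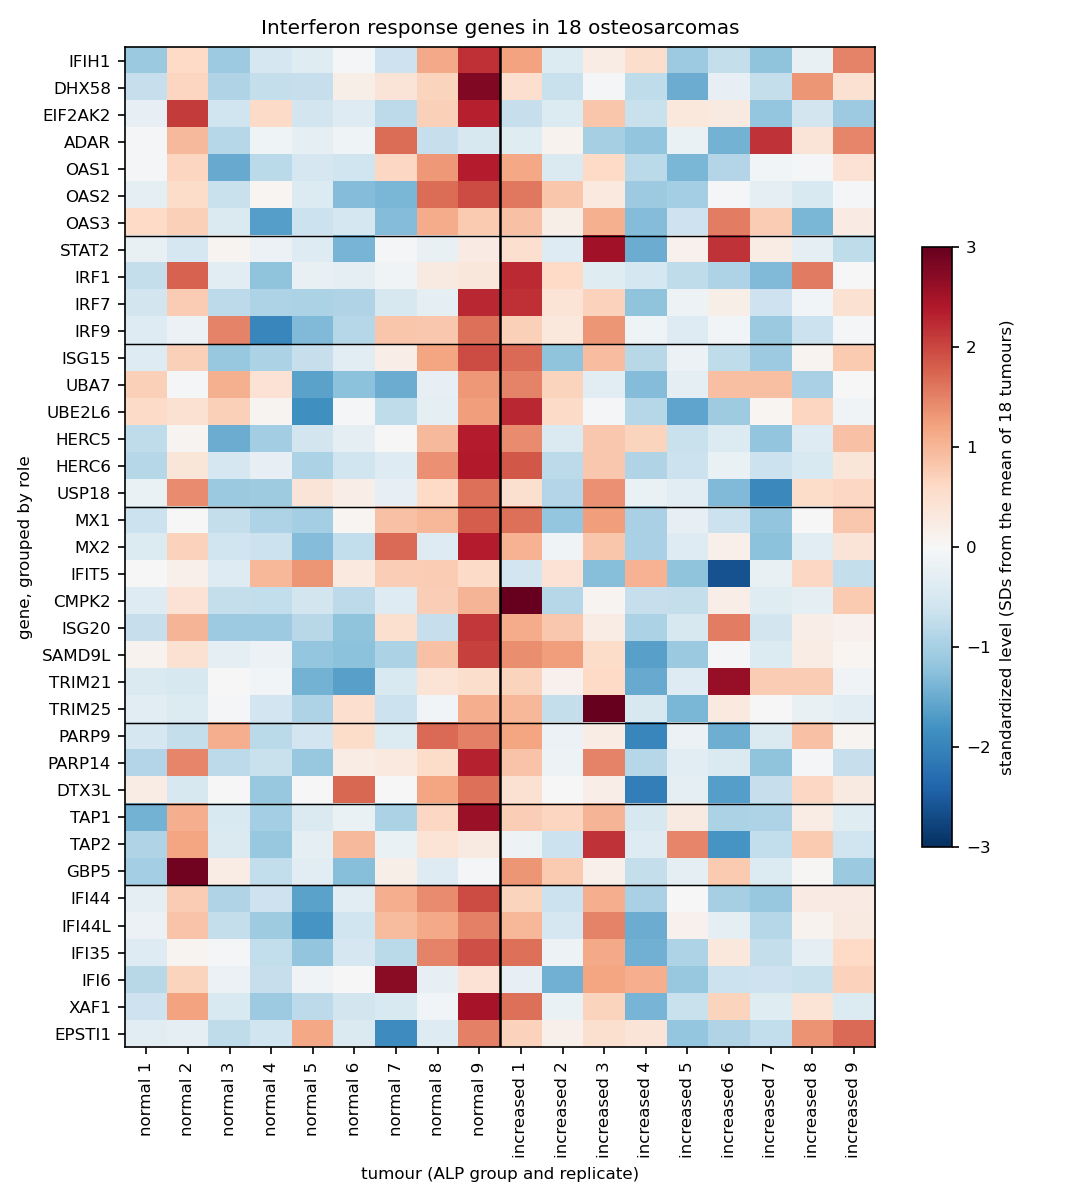
Standardized level of the 37 tested interferon response genes (rows, grouped by role) in each of the 18 tumours (columns, normal ALP left of the vertical line, increased ALP right); colour gives SDs from the mean of the 18 tumours, red above and blue below. Normal ALP replicate 9 is red in nearly every row, and both ALP groups hold tumours that are mostly red and mostly blue.

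The tumours formed a gradient that crossed both ALP groups. The mean of the standardized genes, here called the interferon score, ran from -0.770 to 1.54 SDs with a median of -0.181. With normal ALP it had a minimum of -0.663, a median of -0.371 and a maximum of 1.54, and with increased ALP the corresponding values were -0.770, -0.122 and 1.04. Scores above 0 were found in 3 tumours with normal and 4 with increased ALP, so high and low tumours were present in each group.

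A single tumour led most of the genes. Normal ALP replicate 9 had the highest level of 21 of the 37 genes (56.8%), lay above the median of the tumours for 36 and among the 3 highest for 28. The same tumour was highest for 4.25% of all 10717 genes. Increased ALP replicate 1, with the next score of 1.04, was highest for 4 genes and among the 3 highest for 21. Increased ALP replicate 4, with the lowest score, was lowest for 7 genes, and normal ALP replicate 5 and increased ALP replicate 7 for 6 each. Normal ALP replicate 9 was highest for the peptide transporter gene TAP1 but ranked 7 for TAP2 and 9 for the GTPase gene GBP5. The lowest values were spread over several tumours.

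Among the sensors of foreign RNA, most followed the common gradient. IFIH1, the cytoplasmic RNA sensor MDA5, lay between 7.23 and 9.23 with normal ALP (median 7.69) and between 7.18 and 8.82 with increased ALP (median 7.77). Its correlation with the mean of the other genes was 0.753. DHX58, the regulator LGP2 of those sensors, was at 7.46 in normal ALP replicate 9 and at most 6.94 in any other tumour, with a correlation to the others of 0.807. The kinase EIF2AK2 (PKR), which halts translation when viral RNA is bound, spanned 5.90 to 7.41 and correlated at 0.542.

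The oligoadenylate synthetases, which activate RNase L, differed in how far their probe sets varied. OAS1 spanned 10.4-fold in deposited signal, from 8.26 to 11.57, and OAS2 spanned 5.22-fold, from 9.04 to 11.39. They correlated with the mean of the other genes at 0.875 and 0.766. OAS3 stayed within 6.29 and 6.62, a range of 1.33-fold, at a correlation of 0.518. Its probe set was dim, with a mean of 6.46 near the filter value of 6.15. Its narrow range therefore cannot show that the gene itself varied less. ADAR, which edits RNA and has a constitutive promoter beside an interferon-induced one, spanned 1.49-fold and did not follow the gradient, with a correlation of -0.090.

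The transcription factors of the response split in the same way. IRF7, the factor that amplifies type I interferon production, ran from 6.05 to 7.81 with normal ALP (median 6.27) and from 5.91 to 7.78 with increased ALP (median 6.66). Its 2 highest tumours were normal ALP replicate 9 and increased ALP replicate 1, well above the rest, and its correlation with the other genes was 0.896. IRF9, the DNA-binding partner of STAT2, lay between 8.92 and 10.03, with a correlation of 0.638. IRF1, the main factor downstream of interferon gamma, ran from 7.36 to 8.81 with normal and from 7.31 to 9.04 with increased ALP. It was highest in increased ALP replicate 1 and then in normal ALP replicate 2, not in normal ALP replicate 9, and correlated at 0.612.

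STAT2, a factor of type I and type III interferon signalling, correlated with the other genes at 0.283 and moved with an array control. Its level lay between 8.49 and 9.30, with the highest values in increased ALP replicates 3 (9.30) and 6 (9.23), the arrays of highest BioB signal. Over the 18 arrays it correlated with BioB at Pearson r = 0.943 (permutation p = 1e-05, the smallest the permutations can give) and Spearman rho = 0.80 (permutation p = 0.00014). Adjusted over the 74 relations of the 37 genes with BioB and with the actin difference, chosen after seeing the data, these became 0.00074 and 0.0104. Without those 2 arrays r was 0.787, and within the groups it was 0.883 with normal and 0.949 with increased ALP. The other STAT2 probe sets disagreed: 2 of the 4 correlated with the chosen probe set at -0.284 and -0.274, and the others at 0.495 and 0.830. The first pair correlated with BioB at -0.306 each, and the second at 0.462 and 0.787. The part of the array control in the STAT2 values was not tested.

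The ISG15 system holds a ubiquitin-like protein and the enzymes that attach and remove it. ISG15 itself was the most variable gene of the list, with an SD of 1.41 and a 23.7-fold range in deposited signal. Its lowest, median and highest levels were 7.65, 8.80 and 11.99 with normal ALP and 7.55, 9.00 and 11.64 with increased ALP. The groups overlapped over nearly their whole range, and the tumours at the top were normal ALP replicate 9 in one group and increased ALP replicate 1 in the other. The second ISG15 probe set correlated with the chosen one at 0.984.

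The enzymes of the system ranged from close to loose followers of ISG15. With ISG15 itself, r was 0.900 for HERC6, 0.867 for HERC5, 0.822 for USP18, 0.428 for UBE2L6 and 0.135 for UBA7. The correlations that follow are with the mean of the other genes. HERC6, a relative of the ligase HERC5, lay between 8.28 and 10.88 and had the highest correlation with the mean of the others in the list, 0.926. HERC5, the main ISG15 ligase in human cells, spanned 16.6-fold, from 5.67 to 9.22 (correlation 0.805), and USP18, which removes ISG15 and dampens the receptor, spanned 10.8-fold (correlation 0.706). The activating enzyme UBA7 and the conjugating enzyme UBE2L6 spanned 3.46-fold and 2.73-fold, at correlations of 0.329 and 0.586.

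**Figure D2:**
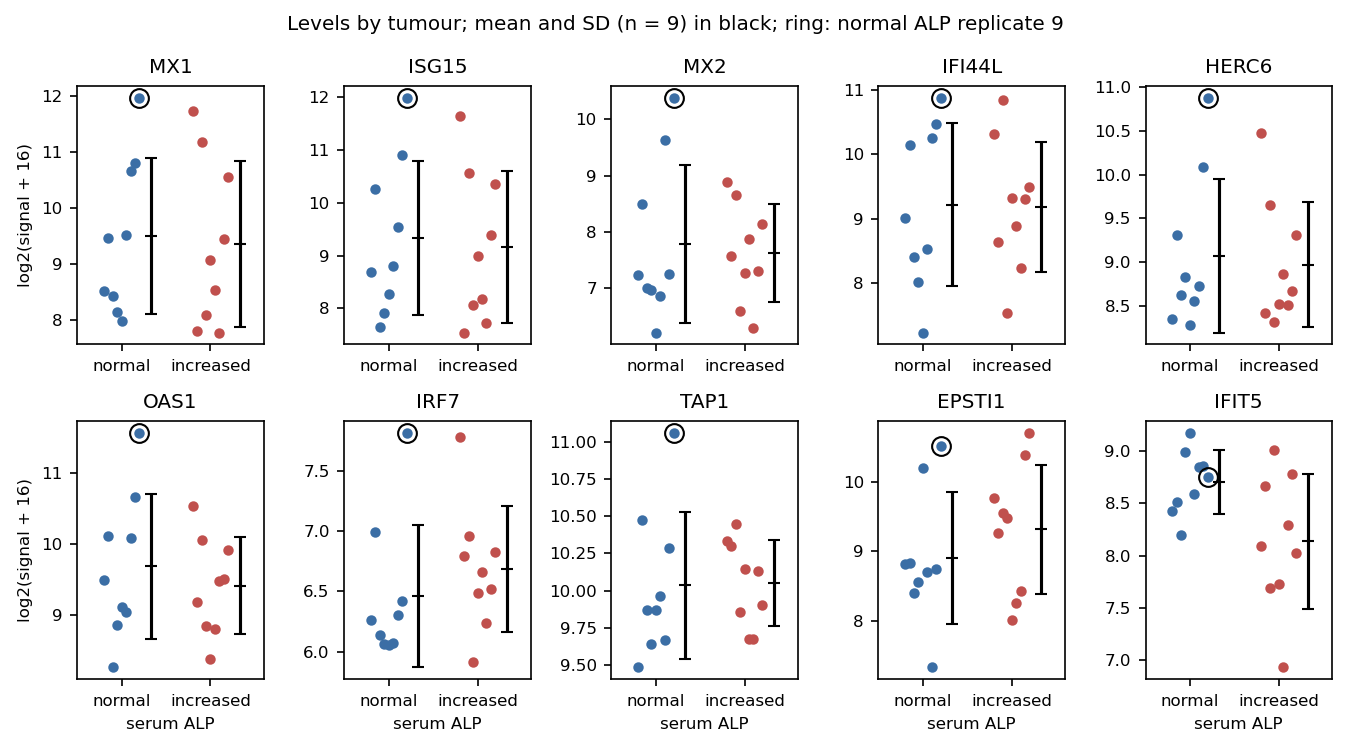
Level, log2(signal + 16), of 10 interferon response genes in the 9 tumours with normal (blue) and the 9 with increased (red) serum ALP; points are tumours, black marks the mean with its SD, and the ring marks normal ALP replicate 9. The groups overlap for every gene shown, and the ringed tumour is highest for MX1, ISG15, MX2, IFI44L, HERC6, OAS1, IRF7 and TAP1 but not for EPSTI1 or IFIT5.

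The antiviral effectors included the second most variable gene, MX1, a GTPase that traps viral nucleocapsids. Its lowest, median and highest levels were 8.0, 9.47 and 11.98 with normal ALP and 7.78, 9.08 and 11.73 with increased ALP, a 19.6-fold range over all tumours. MX2, the related nuclear envelope GTPase, spanned 22.5-fold, from 6.22 to 10.38, and normal ALP replicate 9 exceeded the next tumour (9.64) by 0.75. MX1 and MX2 correlated with the other genes at 0.864 and 0.799. SAMD9L, an inhibitor of translation and growth, spanned 5.72-fold at a correlation of 0.815, and the exonuclease ISG20 spanned 8.08-fold at 0.706. CMPK2, a mitochondrial nucleotide kinase, was at 7.71 in increased ALP replicate 1 and at most 6.71 in the other tumours.

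The ubiquitin ligases TRIM21 and TRIM25 spanned 1.63-fold and 2.17-fold, at correlations of 0.332 and 0.574, and both were highest in an array of high BioB signal, TRIM21 in increased ALP replicate 6 and TRIM25 in increased ALP replicate 3. IFIT2, which binds viral RNA and lay below the filter, ran from 5.44 to 6.89, a 3.72-fold range, highest in normal ALP replicate 9 and lowest in increased ALP replicate 4. RSAD2, which encodes viperin, stayed between 5.23 and 5.63, also below the filter.

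IFIT5, an RNA-binding protein of the IFIT family, did not follow the gradient. It correlated with the mean of the other genes at -0.147 and was below 0 with 20 of the 36 others, at a median over them of -0.045. Its lowest correlation was with STAT2, at -0.710. Its level lay between 8.20 and 9.18 with normal ALP and between 6.93 and 9.01 with increased ALP. Its 2 lowest tumours were increased ALP replicates 6 (6.93) and 3 (7.69). It was lower where the actin difference was larger, at r = -0.775 (permutation p = 0.00019, adjusted p = 0.00703 over the 74 relations) and rho = -0.655 (permutation p = 0.00414, adjusted p = 0.103). Without the same 2 arrays r was -0.629, and it was -0.301 within normal and -0.780 within increased ALP.

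The remaining members followed the gradient to different degrees. IFI44L and IFI44, cytoplasmic proteins of the same family, spanned 13.9-fold and 9.74-fold and correlated with the other genes at 0.865 and 0.843. IFI35 and the apoptosis factor XAF1 correlated at 0.898 and 0.897, with ranges of 5.40-fold and 4.20-fold. EPSTI1 spanned 11.5-fold, from 7.33 to 10.72, but was highest in increased ALP replicate 9 and correlated at 0.385. IFI6, a mitochondrial survival factor, was highest in normal ALP replicate 7 (9.34, against at most 8.80 elsewhere) and correlated at 0.208.

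PARP14, an ADP-ribosyltransferase, lay between 6.99 and 8.95, PARP9 between 7.33 and 8.78 and DTX3L between 8.45 and 10.70. PARP14 correlated with the other genes at 0.886, above PARP9 at 0.606 and DTX3L at 0.525, which form a complex with each other. TAP1, a subunit of the peptide transporter that feeds MHC class I, lay between 9.48 and 11.06 and correlated at 0.811, while the other subunit, TAP2, lay between 9.45 and 10.90 and correlated at 0.346. GBP5, a GTPase typical of interferon gamma, was at 7.56 in normal ALP replicate 2 and at most 6.93 elsewhere, with a correlation of 0.40.

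Neighbouring genes in the genome moved together, as did much of the list. In the gene order of the RefSeq assembly UU_Cfam_GSD_1.0, 10 pairs of the 37 genes had at most 3 protein-coding genes between them. Their correlations lay between 0.458 and 0.947, with a median of 0.678, against 0.453 over all 666 pairs of the list. The OAS genes, and PARP9, PARP14 and DTX3L, each gave several of these pairs. The part of genome position in these values was not tested. The closest were IFI44 with IFI44L at 0.947, PARP9 with DTX3L at 0.859, HERC5 with HERC6 at 0.834 and MX1 with MX2 at 0.801, all with no protein-coding gene between them. OAS1 with OAS3, likewise adjacent, had the lowest value. Pairs that are not neighbours were as close, led by ISG15 with MX1 at 0.952 and IFIH1 with HERC5 at 0.928.

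The readings were largely shared by separate probe sets of a gene, with named exceptions. Of 31 second probe sets that passed the filter, in 17 genes, 21 correlated with the chosen probe set over 0.7, and the median was 0.854. The 3 below 0 belonged to STAT2 (the 2 above) and IRF9 (-0.122), and a second TAP2 probe set stood at 0.018. Also not over 0.7 were probe sets of EPSTI1 (0.369), TRIM21 (0.374), DHX58 (0.458), STAT2 (0.495), IRF9 (0.602) and DTX3L (0.655). Of the 39 chosen probe sets, 13 end in _s_at and can share probes with other transcripts, among them those of MX1, MX2 and ISG15. MX1 and MX2, and OAS1, OAS2 and OAS3, are paralogs, so their signals are uncertain to the extent that probes are shared.

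**Figure D3:**
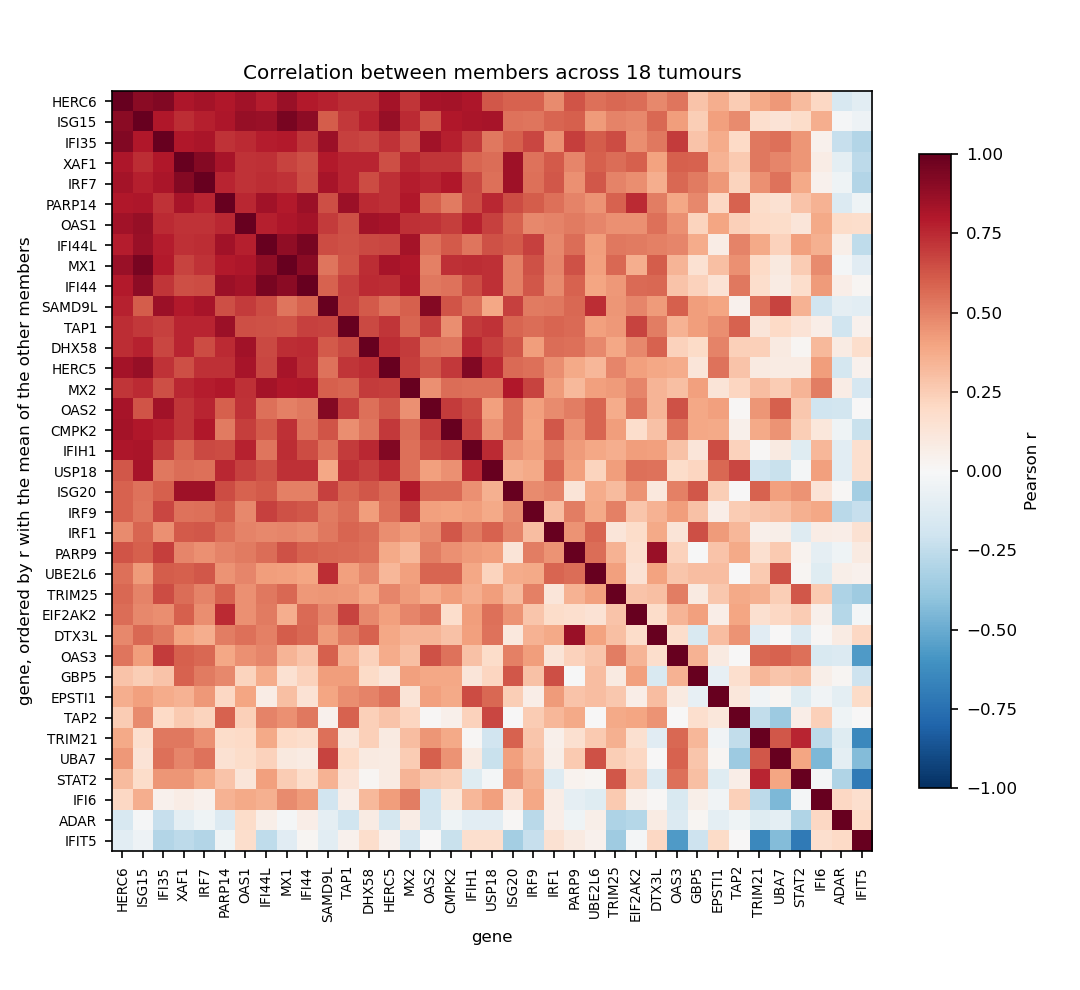
Pearson correlation across the 18 tumours between each pair of the 37 genes (both axes), ordered by each gene's correlation with the mean of the others; red is positive and blue negative. A block from HERC6 to USP18 is red throughout. IFI6 is mixed, from -0.449 with UBA7 to 0.509 with MX2. ADAR and IFIT5 at the end are pale or blue, with STAT2 and IFIT5 at -0.710.

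The question the design poses is whether tumours differ with serum ALP, and no interferon response gene could be called different. In limma's moderated test over 25754 probe sets, 0 of the 37 genes passed an adjusted p of 0.05, as for all probe sets (0%), and adjusted p-values of the genes lay between 0.734 and 0.999. At an unadjusted p under 0.05 there was 1 gene, IFIT5, where 4.86% of all genes tested had such a p. Of the 37, 20 were lower and 17 higher with increased ALP (46.6% of all genes tested were lower). The median difference, increased minus normal ALP, was -0.0057, against 0.013 over all genes tested, and it lay between -0.11 and 0.12 on leaving out single arrays. The groups overlapped for all 37 genes, and 0% of all genes tested had groups that did not overlap.

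The 4 genes of lowest p on either side are given here, and none passed adjustment. IFIT5 stood at 8.71 ± 0.30 with normal and 8.14 ± 0.64 with increased ALP (SD, n = 9 each), a difference of -0.57 ± 0.23 (SE, limma adjusted p = 0.734), with 7 of 9 tumours with increased ALP below the normal mean. EIF2AK2 differed by -0.30 ± 0.18, DTX3L by -0.42 ± 0.26 and PARP9 by -0.16 ± 0.19. In the other direction TRIM21 differed by 0.12 ± 0.08, STAT2 by 0.12 ± 0.11, ISG20 by 0.35 ± 0.35 and EPSTI1 by 0.42 ± 0.42 (SE throughout, adjusted p at least 0.850 in limma).

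For the most variable genes the comparison was imprecise. MX1 differed by -0.14 ± 0.63 (SE) and ISG15 by -0.17 ± 0.63, and the 95% intervals of the fold, increased over normal, ran from 0.363 to 2.26 and from 0.353 to 2.23. Over the list, 26 genes had a 95% interval within 2-fold in both directions, and for 11 it reached further. The sign turned without any of several single arrays. For MX1 these were increased ALP replicates 2 (0.050), 4 (0.016) and 7 (0.055) and normal ALP replicates 7 (0.0018), 8 (0.021) and 9 (0.17). For ISG15 they were increased ALP replicates 2 (0.029) and 7 (0.0064) and normal ALP replicates 8 (0.022) and 9 (0.16).

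How many genes were lower with increased ALP depended on whether the actin measure was in the fit, with 20 lower without it. With the actin measure as a covariate, which correlates with the group at 0.667, 32 of the 37 genes were lower with increased ALP, where 49.0% of all genes tested were. The genes moved together, so these are not 37 separate observations. The same measure from GAPDH was not fitted. MX1 then stood at -1.65 ± 0.69 (SE), ISG15 at -1.35, MX2 at -1.48 ± 0.53 and IFI44L at -1.24 ± 0.55, while IFIT5 stood at 0.0060. The count at an unadjusted p under 0.05 became 4, namely MX2, MX1, IFI44L and IFI6 (3.11% of all genes tested), and 0 passed after adjustment. Without increased ALP replicates 3 and 6 the STAT2 difference was -3.04e-05 and that of IFIT5 -0.33. The part of RNA quality in these values was not tested.

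**Figure D4:**
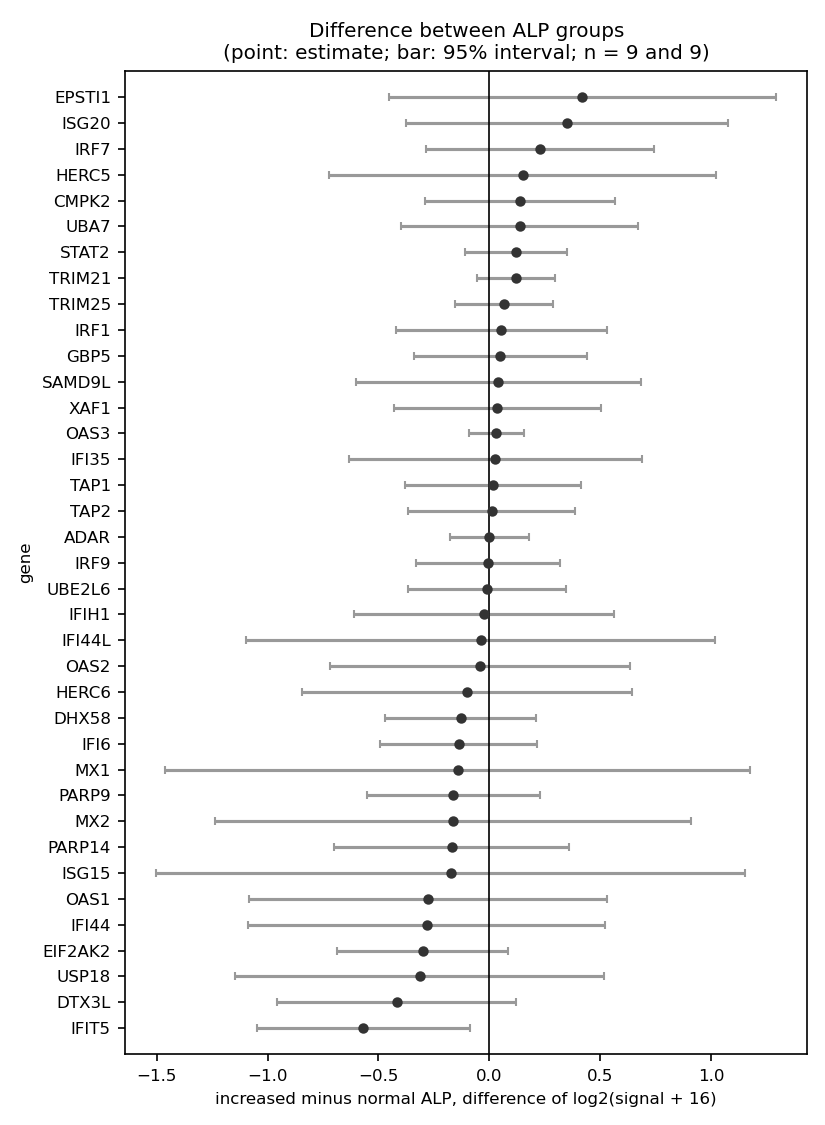
Difference of log2(signal + 16), increased minus normal ALP, for each of the 37 tested genes (rows, ordered by the difference), with its 95% interval from limma (n = 9 and 9). All intervals except that of IFIT5 at the bottom include 0, and those of MX1 and ISG15 are the widest.

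Among ligands, receptors, kinases and regulators of the pathway, 7 of the 11 tested genes had an SD over the median of all genes tested. Of 10 ligand and receptor genes, 4 were tested, 3 higher and 1 lower with increased ALP and 0 passing adjustment. The ligand genes IFNB1, IFNK and IFNG lay below the filter, IFNB1 between 4.54 and 4.65 and IFNG between 5.24 and 7.57. The receptor subunits IFNGR2 and IL10RB were highest in normal ALP replicate 9, at 12.15 and 11.96, and IL10RB was as low as 9.49 elsewhere. Of 7 kinases and regulators tested, 3 were higher and 4 lower, and PIAS1, an inhibitor of STAT signalling, differed by 0.30 ± 0.12 (SE, limma adjusted p = 0.719). The level of this list correlated with the interferon score at -0.303. That of the ligand and receptor list stood at 0.325, and at 0.105 without normal ALP replicate 9.

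Upstream sensing and MHC class I genes followed the score more closely as lists. The 8 tested genes of upstream sensing (4 higher, 4 lower, 0 passing) correlated with it as a list at 0.577. Without normal ALP replicate 9 the value was 0.429, and the median over the single genes was 0.259 in all tumours. STING1, the adaptor of DNA sensing, was highest in normal ALP replicate 9 at 9.64, against a median of 8.56 in the other tumours, and TBK1, its kinase, differed by -0.28 ± 0.13 (SE, limma adjusted p = 0.810). The 14 genes of MHC class I and the immunoproteasome, 7 higher and 7 lower with 0 passing, correlated as a list at 0.662. Without normal ALP replicate 9 the value was 0.582. In all tumours, 12 of the genes had a correlation above 0. B2M, the light chain of MHC class I, was highest in normal ALP replicate 9 at 14.22, as was the immunoproteasome subunit PSMB9 at 11.68, in a range that began at 7.23.

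The MHC class I gene DLA88 fell into separate levels. It was under 6 in 5 tumours, where the highest value was 4.58, and at least 10.35 in the other 13. Normal ALP replicate 9, with the highest B2M, was among the 5 at 4.53. The low tumours comprised 2 with normal and 3 with increased ALP. DLA88 is highly polymorphic between dogs, and whether its probes match each allele was not tested.

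Of 7 tested interferon gamma targets, 3 were higher and 4 lower with 0 passing, and the list correlated with the score at 0.544, but its leading tumour was normal ALP replicate 2. CXCL10, a chemokine for T cells, ran from 5.64 to 12.37 and IDO1, which degrades tryptophan, from 6.06 to 9.49, and each ranked 4 of 18 in normal ALP replicate 9, at 10.49 and 8.37.

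Relations between single genes were examined for 13 pairs, and 6 passed by Pearson r after adjustment over the 13 (permutation test, two-sided). A relation said to pass does so by Pearson r unless rho is named. MX1 and ISG15 were tightly related, at r = 0.952 and rho = 0.932 (permutation p = 1e-05 each, the smallest the permutations can give, adjusted p = 0.00013 each). Without the 2 tumours farthest from the MX1 median, normal ALP replicate 9 and increased ALP replicate 1, r was 0.919, and within the groups it was 0.911 and 0.992.

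The links of MX1 to IRF7 and TAP1 were weaker without those 2 tumours, whose removal also narrows the range of MX1. Within normal and increased ALP, r was 0.732 and 0.782 for IRF7 and 0.714 and 0.573 for TAP1. MX1 and IRF7 had r = 0.724 (permutation p = 0.00064, adjusted p = 0.00416) and rho = 0.647 (permutation p = 0.00496, adjusted p = 0.0215), but r = 0.468 (permutation p = 0.0686) without them. MX1 and TAP1 had r = 0.629 (permutation p = 0.00418, adjusted p = 0.0170) and rho = 0.540 (permutation p = 0.0217, adjusted p = 0.0471), but r = 0.421 (permutation p = 0.105) without them, and r = 0.494 (permutation, adjusted p = 0.0898) without normal ALP replicate 9 alone. MX1 was not detectably related to STAT2 (r = 0.252, permutation p = 0.318, rho = 0.288, permutation p = 0.246), and r was 0.219 without the same 2 tumours.

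IRF1 was related to TAP1 at r = 0.579 (permutation p = 0.0122, adjusted p = 0.0264) and rho = 0.682 (permutation p = 0.00258, adjusted p = 0.0168), and r was 0.536 without the 2 farthest tumours, normal ALP replicate 2 and increased ALP replicate 1. By permutation, its adjusted p rose to 0.0752 without normal ALP replicate 2 (r = 0.532), to 0.0528 without normal ALP replicate 4 (r = 0.545) and to 0.0529 without increased ALP replicate 7 (r = 0.547). IRF1 and GBP5 passed by r = 0.641 (permutation p = 0.00523, adjusted p = 0.0170) but not by rho = 0.467 (permutation p = 0.0516, adjusted p = 0.0958). This relation was weaker without the same 2 tumours, at r = 0.254, and r was 0.518 (permutation, adjusted p = 0.0752) without normal ALP replicate 2 alone. Within normal and increased ALP, r of IRF1 with GBP5 was 0.855 and 0.515. TAP1 and PSMB9 did not pass by r = 0.464 (permutation p = 0.0510, adjusted p = 0.0948) but passed by rho = 0.569 (permutation p = 0.0153, adjusted p = 0.0397). Their r was 0.297 without normal ALP replicates 2 and 9. For TAP1 and PSMB9, r was 0.883 within normal and -0.129 within increased ALP, a difference that was not tested. Without increased ALP replicate 3 the relation of TAP1 with PSMB9 passed at r = 0.637, and without increased ALP replicate 5 at 0.564.

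A T cell gene was related to GBP5, and no relation of it with MX1 was detected. CD3E, a subunit of the T cell receptor complex, was related to GBP5 at r = 0.608 (permutation p = 0.00886, adjusted p = 0.0230) and rho = 0.616 (permutation p = 0.00752, adjusted p = 0.0244). That relation was larger without the 2 tumours farthest in GBP5, at 0.690, and was 0.692 and 0.676 within normal and increased ALP. CD3E with MX1 stood at r = -0.267 (permutation p = 0.287, rho = -0.187, permutation p = 0.455, r = -0.380 without the 2 farthest tumours) and with TAP1 at 0.194 (permutation p = 0.442, rho = 0.228, permutation p = 0.359, r = 0.155 without the 2 farthest).

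**Figure D5:**
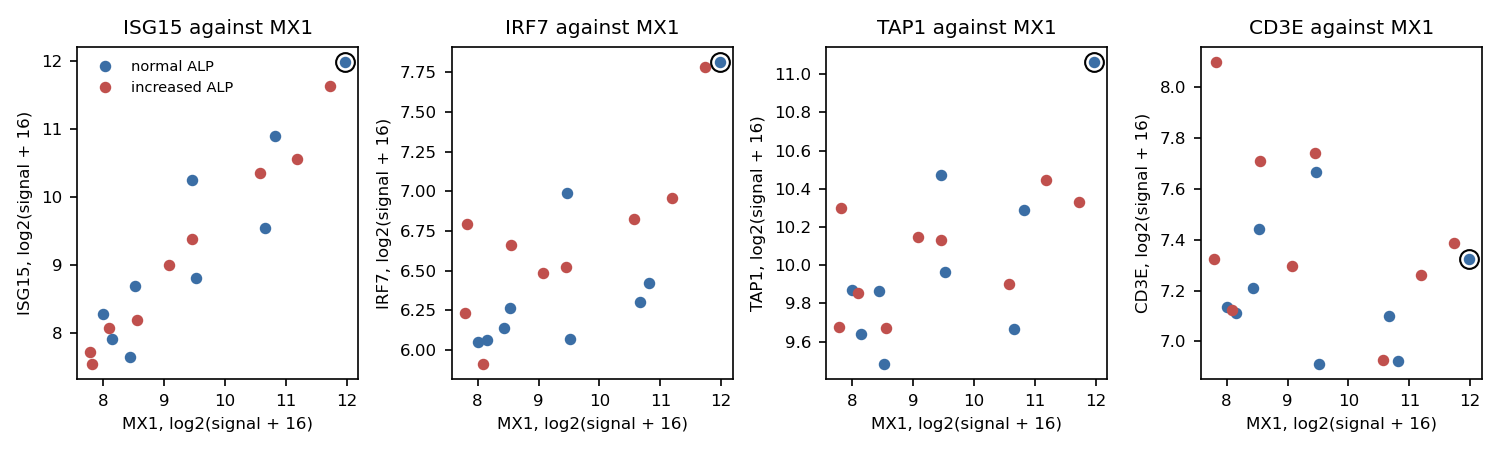
Levels, log2(signal + 16), of ISG15, IRF7, TAP1 and CD3E (vertical axes) against MX1 (horizontal axes) in the 18 tumours; blue is normal and red increased ALP, and the ring marks normal ALP replicate 9. ISG15 follows MX1 over the whole range (r = 0.952). IRF7 is highest in the ringed tumour and increased ALP replicate 1, which also have the highest MX1. TAP1 is highest in the ringed tumour and next in normal ALP replicate 2 (10.47), where MX1 is 9.47. CD3E has no upward trend (r = -0.267).

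Markers of other cells were read beside the score. Macrophage genes, 15 of 16 tested, correlated with it as a list at 0.460, and at 0.215 without normal ALP replicate 9. That tumour had the highest level of 8 of the 15, among them CD68 at 12.60 and CSF1R at 10.17. The mean level of the macrophage list lay between 8.64 and 10.77 with normal and between 8.89 and 10.53 with increased ALP. MX1 with CD68 stood at r = 0.401 (permutation p = 0.0986, rho = 0.356, permutation p = 0.146), and at r = 0.376 without the 2 tumours of highest MX1.

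T and NK cell genes, 12 of 20 tested, correlated with the score at 0.256, and normal ALP replicate 9 was highest for 0 of them. Their mean level lay between 6.29 and 7.47 with normal and between 6.39 and 7.60 with increased ALP. Of 10 markers of plasmacytoid dendritic cells, strong producers of type I interferon, 4 were tested, and the list correlated at 0.228, with IRF8 and GZMB below the filter. B and plasma cell markers, 2 of 7 tested, stood at 0.566. Neutrophil, endothelial and cell division lists stood at 0.321, 0.019 and 0.223, osteoblast genes at -0.288 and skeletal muscle genes at -0.205. MX1 with TOP2A, a gene of dividing cells, stood at r = 0.346 (permutation p = 0.163, rho = 0.430, permutation p = 0.0762), and at r = 0.571 (permutation p = 0.0181) without the same 2 tumours. The part of other cell types in the score was not tested.

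Array measures were read beside the score in the same way. The score correlated with the actin difference at 0.305, and at 0.494 without normal ALP replicate 9. With BioB it correlated at 0.368 (0.366 without that tumour) and with the matching GAPDH difference at 0.045. With the 75th percentile of the array's values it stood at r = -0.305 and rho = -0.556. The part of these array measures in the score was not tested. Among single genes, 31 of 37 correlated with the actin difference above 0, with a median of 0.217. MX1 with the actin difference stood at r = 0.426 (permutation p = 0.0792, adjusted p = 0.129) and rho = 0.325 (permutation p = 0.188), and r was 0.476 without the 2 tumours of highest MX1. It was 0.406 within normal and 0.760 within increased ALP, and passed adjustment at r = 0.561 without normal ALP replicate 9 and 0.554 without increased ALP replicate 6. Normal ALP replicate 9 itself had an actin difference of 1.40 and increased ALP replicate 1 of 2.03, so the 2 tumours of highest score lay at the normal ALP median and near the top.

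Genes outside the list with the most similar pattern included further known interferon targets. Over 10680 other genes the median correlation with the score was 0.025 and the 99th percentile 0.567, and 5 exceeded 0.8. DDX60, a helicase of antiviral defence, had r = 0.867 and lay between 5.57 and 9.41. RTP4, an interferon-induced chaperone of receptors, had 0.855, and LGALS9, which encodes galectin 9, had 0.817. All of these were highest in normal ALP replicate 9, and their r without that tumour was 0.786, 0.794 and 0.739.

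The others among the 15 highest were KCTD17 at 0.834, ARHGAP12 at 0.811, the interleukin 7 receptor IL7R at 0.785, the lymphocyte receptor SLAMF7 at 0.746, TSPO at 0.742, SPNS3 at 0.734, SPEM1 at 0.729, the MHC class I gene DLA-64 at 0.715, DRD4 at 0.713, HSD11B2 at 0.710, TTC34 at 0.705 and FAM166A at 0.702. Several of them barely varied, with SDs of 0.17 for KCTD17, 0.12 for DRD4 and 0.11 for HSD11B2. The 5 lowest were COL5A2, a fibrillar collagen chain, at -0.754, the vesicle protein SEC22B at -0.733, the glycosyltransferase GCNT1 at -0.714, the deubiquitinase JOSD1 at -0.709 and PARP4 at -0.706. The genes were ranked on the same 18 tumours, so these correlations describe the ranking and carry no test.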

How the data were processed

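Total RNA of 18 tumours was hybridised to Affymetrix canine arrays after TRIzol extraction, per the labels' protocols. The deposited log2 signals cover 43035 probe sets. MAS5 is the tool listed in the submitters' processing notes, with no role given, so the summary method and its normalization remain unknown. Values were analysed as log2(signal + 16), computed from the deposited log2 values, which understates changes of dim probe sets. After 111 control probe sets were set aside, those with a mean below the 40th percentile (6.15) were left out. Gene names came from the platform annotation.

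The groups were compared with limma 3.58.1 in R 4.3.3 (eBayes with an intensity trend, two-sided, Benjamini-Hochberg over 25754 probe sets). Simulated data with a set of altered probe sets were used to test the fit. Correlations used Python 3.11.15 with NumPy 2.4.6, SciPy 1.17.1 and 100000 permutations. Tissue numbers shared by the groups were not taken as pairs. Deviations of same-numbered pairs correlated at a median of 0.094, with 4 of 9 over 0.1, against a median of -0.0070 for other pairs.

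The members, gene lists, tests and settings were chosen with earlier results of these data known. Every measured member is named by its level or spread. More detail is given for MX1, ISG15, STAT2, IRF1, IRF7, IRF9, TAP1 and GBP5, the 6 members of largest SD, the 4 of smallest p per direction and those with an outlying tumour. The other names were the 15 genes most like the score, the 5 least like it, and members of pathway lists, some of which were chosen after their values were seen. Of 14 planned relations, 1 is not reported here. Settings tried were an offset of 1 or 64, the filter dropped or raised to the 60th percentile, quantile and 75th percentile scaling, eBayes without a trend or robust, weighted arrays, a block for the tissue number, the actin difference as a covariate, the mean over a gene's probe sets, deviations from group means, and leaving out each array. Leaving out increased ALP replicates 3 and 6 was chosen after seeing the data.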

Additional observations from a re-analysis of the deposited data

Results flagged for a closer look

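Within an ALP group of 9 tumours, 6 genes had a tumour far from the others by Dixon's test, out of 80 groups of values examined, 2 for each of the 39 genes and for the score. Chance flags about 1 in 20 such groups. DHX58 was at 7.46 and IFIT2 at 6.89 in normal ALP replicate 9, where the next tumours of that group stood at 6.71 and 6.19. CMPK2 was at 7.71 in increased ALP replicate 1, with the next at 6.61. GBP5 was at 7.56 in normal ALP replicate 2, with the next at 6.47. IFI6 was at 9.34 in normal ALP replicate 7, with the next at 8.62. STAT2 was at 8.504 in normal ALP replicate 6, the lowest of its group, with the next at 8.69. The interferon score itself had no such tumour in either group.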

How the results depend on the processing

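Under each alternative run, 0 of the interferon response genes passed an adjusted p of 0.05, including with the tissue number as a replicate block (0 genes, and 1 at an unadjusted p under 0.05). Of same-numbered pairs, 0 of the 9 normal ALP tumours correlated best with their own number. The median difference was between -0.24, with the actin difference as a covariate, and 0.072, with array weights. It was between -0.11 and 0.12 without single arrays, so its sign is not settled. At an unadjusted p under 0.05 there were 4 genes with the actin covariate, 2 with array weights and 2 without normal ALP replicate 4. The sign turned with the actin covariate for 16 of the 37 genes, among them IFIT5 (0.0060), STAT2 (-0.088) and ISG20 (-0.26), and with array weights for MX1 (0.17) and ISG15 (0.13). For STAT2 it turned without increased ALP replicates 3 and 6 (-3.04e-05). Without single arrays MX1 ranged from -0.44 to 0.17 and ISG15 from -0.48 to 0.16. The median SD fell to 0.46 with an offset of 64, which damps dim probe sets by construction. With the filter at the 60th percentile 3 relations passed, because fewer genes were tested, and without single arrays 4 to 7 passed. The median pairwise correlation was between 0.372 and 0.487 over all alternatives run. Signal over background was not known for any probe set.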
